A study of Mus musculus with 9 samples.

Results

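The Hippo kinases and the proteins that act upstream of them were followed across libraries of mouse embryos, as 10 genes chosen by symbol: the kinases Stk3, Stk4, Lats1 and Lats2, the adaptors Sav1 and Mob1a, and the upstream regulators Nf2, Amot, Amotl1 and Ajuba. All 10 were among the 16070 rows of the deposited table and all 10 were among the 11850 genes tested. The study asked what changes in the early embryo when arginine methylation of histone H3 is lost, with Yap signalling named in the series title. The embryos, of the strain C57BL/6, grew in culture until 4.5 days past microinjection, near the late blastocyst. There were 9 libraries in 3 groups of 3: wild type (WT), a substitution of arginine by histidine in histone H3 (H3R17H), and Carm1-/-, lacking the methyltransferase that acts on this arginine. The title names CRISPR-Cas9 editing, and the labels do not say what the WT embryos received at injection or whether the edited embryos carried cells of more than 1 genotype. The tissue is labelled as embryo while the extraction is described for a single cell, so whether a library is an embryo or a cell is unclear. Nothing says that replicates came from separate embryos, and p-values then measure only the spread between these libraries, which may be technical.

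Hippo signalling is a kinase cascade that keeps the coactivators Yap and Taz out of the nucleus. The MST kinases (encoded by Stk3 and Stk4), held by the scaffold Sav1, phosphorylate the LATS kinases and their adaptor MOB1, and LATS then phosphorylates Yap. In the mouse blastocyst the cascade is on in inner cells, where the NF2 protein and angiomotin at cell contacts activate LATS. It is off in polarised outer cells, where angiomotin is held at the apical side and nuclear Yap with Tead4 turns on trophectoderm genes. LIM proteins such as Ajuba bind LATS and restrain it. RNA levels, which were measured here, do not report the phosphorylation or the location of these proteins.

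The labels have to be read with care. Carm1 stood at 6.65 to 8.86 FPKM in WT, while the libraries labelled H3R17H held 0.02 to 1.88 FPKM and those labelled Carm1-/- 6.44 to 12.68 FPKM, and the value columns of the 2 edited groups carry the names Carm and Hist, crossed against the titles. Directions below refer to the label and not to a known genotype. FPKM are fragment counts scaled by transcript length and by the total of mapped fragments, and they carry no depth. Summed over 4 Y-linked genes, levels were 30.74 to 35.75 FPKM in WT, 36.6, 0.01 and 0 in H3R17H replicates 1 to 3 and 28.1, 0 and 0 in Carm1-/- replicates 1 to 3, so no WT library lacked Y-linked transcripts. Between libraries, Pearson's r over genes (not replicates of each other) was 0.957 to 0.968 within WT, 0.932 to 0.942 within H3R17H and 0.853 to 0.905 within Carm1-/-. All 10 trophectoderm markers were in the table. In each edited group 8 of 10 were lower than WT in value, beside 52.3% (H3R17H) and 53.7% (Carm1-/-) of all genes. Their summed level, mostly Krt8 and Krt18, was 5547 to 8360 FPKM in WT, 1627 to 4583 FPKM in H3R17H and 2022 to 8823 FPKM in Carm1-/-. Gata2 was at 0 in replicates 2 and 3 of both edited groups, while Tfap2c and Krt7 had higher means than WT in both. Epiblast markers were lower in value for 4 of 7 in each edited group. Of the tested primitive endoderm markers 4 of 5 were lower in H3R17H and 3 of 5 in Carm1-/-. Of 6 oocyte markers 3 were in the table, summing to at most 2.3 FPKM except for 22.1 and 7.0 FPKM in Carm1-/- replicates 2 and 3. Most of this was Zp3, at 19.98 and 4.73 FPKM, while Gdf9 was at 0.03 and 0 FPKM in those libraries. Fewer cells of a type and less RNA per cell cannot be told apart in such libraries.

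Promoter windows were read for the members because YAP with TEAD factors is known to act back on Hippo genes. RefSeq on GRCm38.p6 gave 11 windows of 250 bases before the transcription start for 9 of the 10 members, without Stk3. The windows of Stk4 and Lats2 lie inside the GENCODE loci given below, before RefSeq starts that are downstream of the outermost annotated start. The core of the motif that TEAD factors bind, GGAATG or CATTCC on the other strand, was in the windows of 3 members, Ajuba, Sav1 and Mob1a, and in 12.6% of 32851 windows of all genes. Ajuba (chr14:54577662-54577911, minus strand) held 2 copies, whose first bases lie 186 and 164 bases before the RefSeq start. That start lies outside the GENCODE locus of Ajuba given below. A stretch just after it was not found in the GENCODE transcripts of Ajuba, so these distances are not firm. Sav1 (chr12:69987003-69987252, minus strand) held 1 copy, 106 bases before the start. Mob1a, not shown, held 1 copy, 209 bases before the start, and was higher in mean value than WT in both edited groups. Ajuba and Sav1 are shown 5′ to 3′ with the copies in capitals. They were chosen by value, since Ajuba, like Stk3, stood lower than every WT library in both edited groups and Sav1 varied most within groups. A link between the motif and the levels was not tested.
Ajuba: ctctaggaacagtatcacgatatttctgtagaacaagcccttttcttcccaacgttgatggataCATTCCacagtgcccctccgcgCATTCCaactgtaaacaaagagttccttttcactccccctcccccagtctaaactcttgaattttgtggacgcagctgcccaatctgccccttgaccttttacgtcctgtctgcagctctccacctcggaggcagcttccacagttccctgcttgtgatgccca
Sav1: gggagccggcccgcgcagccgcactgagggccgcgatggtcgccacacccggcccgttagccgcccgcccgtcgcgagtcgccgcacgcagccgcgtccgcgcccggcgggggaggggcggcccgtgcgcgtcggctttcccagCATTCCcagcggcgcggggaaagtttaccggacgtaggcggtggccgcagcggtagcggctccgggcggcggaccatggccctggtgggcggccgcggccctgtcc
Lats2 (chr14:57746124-57746373, minus strand) and Stk4 (chr2:164073888-164074137, plus strand) held no copy. They are shown because their libraries did not overlap WT in H3R17H, with the GC box in capitals, GGGCGG or CCGCCC on the other strand, the motif of Sp1-type factors. Each of these windows held 4 GC boxes, while a second Lats2 window (chr14:57734419-57734668, not shown) held 0. This motif was in 6 of the 11 member windows and in 32.7% of all windows. GC content was 74% for the Lats2 window shown, 44.8% for the second and 60% for Stk4, against a median of 52.4% over all windows.
Lats2: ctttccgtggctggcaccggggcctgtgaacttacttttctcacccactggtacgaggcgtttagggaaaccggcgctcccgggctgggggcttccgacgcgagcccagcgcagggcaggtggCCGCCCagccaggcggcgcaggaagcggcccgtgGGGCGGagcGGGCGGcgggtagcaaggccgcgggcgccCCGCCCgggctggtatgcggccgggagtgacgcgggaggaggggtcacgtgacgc
Stk4: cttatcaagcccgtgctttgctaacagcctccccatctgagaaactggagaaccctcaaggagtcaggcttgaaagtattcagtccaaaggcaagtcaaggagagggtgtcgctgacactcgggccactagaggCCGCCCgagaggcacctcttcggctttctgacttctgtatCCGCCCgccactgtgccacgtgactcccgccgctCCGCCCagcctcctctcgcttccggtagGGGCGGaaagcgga
A match is a run of letters in the window, and no binding was measured.

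In WT the members were expressed at middling to low levels. The median WT level over all tested genes was 5.98 FPKM. Stk4 had the highest mean of the 10, 8.1 ± 0.19 FPKM (SD, n = 3), at percentile 56.5 of the tested genes. It was followed by Nf2 at 7.25 ± 2.52, Mob1a at 5.83 ± 0.3 and Stk3 at 5.64 ± 1.48 FPKM. Ajuba, Lats2 and Amot came next, with 4.57 ± 0.36, 4.17 ± 0.41 and 3.47 ± 0.94 FPKM. From Stk4 down to Amot every neighbour in this order overlapped the next in its WT libraries. Sav1, at 1.33 ± 1.1 FPKM, lay below Amot without overlap and overlapped Lats1, at 0.72 ± 0.42 FPKM. Amotl1 was the lowest, 0.15 ± 0.14 FPKM, below Lats1 in every WT library and at percentile 1.1. The spread within groups ranged just as widely: the pooled SD on the log2(FPKM + 1) scale was 0.22 for Stk4 and 0.26 for Mob1a, the steadiest members, and 0.81 for Sav1, against a median of 0.47 over all tested genes.

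**Figure D1:**
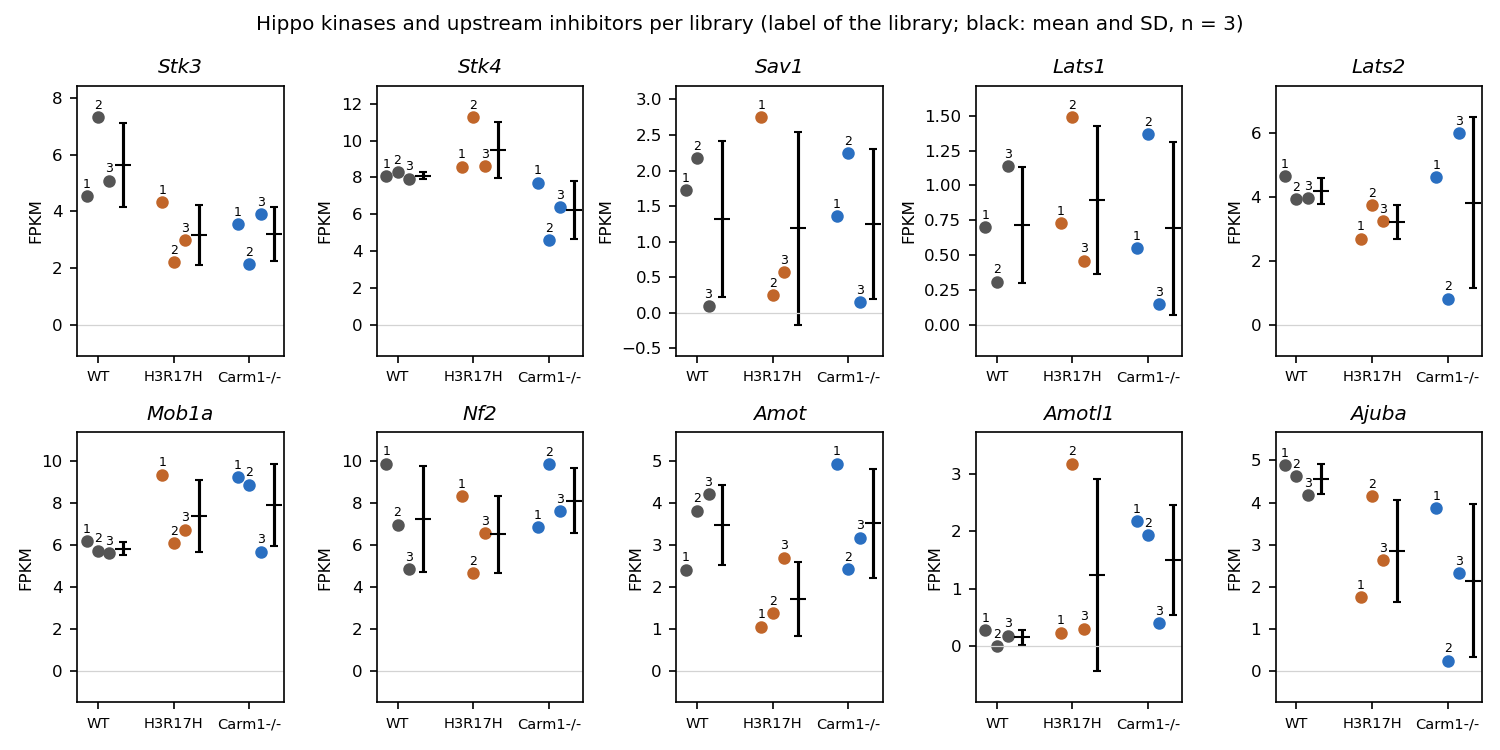
FPKM of each of the 10 genes (y axis, linear) in the 9 libraries, grouped by label (x axis) and numbered by replicate, with the mean and SD of 3 libraries in black. Ajuba and Stk3 lie below all WT libraries in every edited library, and Stk4 lies above WT in H3R17H (8.59 to 11.27 FPKM) and below it in Carm1-/- (4.61 to 7.72 FPKM). Over all genes, 15.6% lay below WT without overlap in H3R17H and 9.71% in Carm1-/-, and 13.3% lay above it in H3R17H.

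At the top of the cascade the MST kinases Stk3 and Stk4 differed in direction in H3R17H, and both were lower in value in Carm1-/-. Stk3, which encodes MST2 (chromosome 15, 34875496 to 35178921, minus strand, build GRCm38), measured 4.53, 7.32 and 5.08 FPKM in WT replicates 1 to 3, at 4.32, 2.2 and 2.98 FPKM in H3R17H and at 3.55, 2.13 and 3.91 FPKM in Carm1-/-. All 6 edited libraries lay below the lowest WT library, although H3R17H replicate 1 was close to it. The log2 difference from WT was -0.68 (95% interval -1.45 to 0.08, limma, adjusted p = 0.396) in H3R17H and -0.67 (-1.43 to 0.1, adjusted p = 0.482) in Carm1-/-, and neither passed. Stk4, which encodes MST1 (chromosome 2, 164070322 to 164155524, plus strand), stood at 8.06, 8.3 and 7.93 FPKM in WT, at 8.59, 11.27 and 8.62 FPKM in H3R17H and at 7.72, 4.61 and 6.37 FPKM in Carm1-/-. Its locus overlaps Tomm34 and that of Sav1 overlaps Atl1, and whether counting used the strand is not given in the sources used here. The 3 groups did not overlap in Stk4, with H3R17H highest and Carm1-/- lowest. The share of all genes with 3 groups apart in this way was not counted. Against WT the log2 difference of Stk4 was 0.2 (-0.43 to 0.82, limma, adjusted p = 0.782) in H3R17H. In Carm1-/- it was -0.35 (-0.98 to 0.27, adjusted p = 0.64), and neither passed. Between the edited groups the log2 difference, Carm1-/- minus H3R17H, was -0.55 (-1.18 to 0.08, limma, adjusted p = 0.67), and it did not pass.

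Sav1, the scaffold that brings MST to LATS (chromosome 12, 69965012 to 69987002, minus strand), was the least steady member. It stood at 1.72, 2.17 and 0.09 FPKM in WT, at 2.75, 0.25 and 0.57 FPKM in H3R17H and at 1.36, 2.24 and 0.15 FPKM in Carm1-/-. Each group held at least 1 library at 1.36 FPKM or more and at least 1 at 0.25 FPKM or less, and the groups overlapped throughout. The 95% interval of its difference from WT ran from -1.38 to 1.15 in H3R17H and from -1.3 to 1.24 in Carm1-/-, wide enough to hold a log2 change of 1 in either direction.

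Of the LATS kinases, which phosphorylate Yap directly, Lats2 was the more abundant per length in 8 of the 9 libraries. Lats2 (chromosome 14, 57689662 to 57758388, minus strand) stood at 4.65, 3.92 and 3.95 FPKM in WT, at 2.69, 3.73 and 3.24 FPKM in H3R17H and at 4.62, 0.82 and 5.99 FPKM in Carm1-/-. The H3R17H libraries lay below WT, while the Carm1-/- libraries held both the highest and the lowest value of the 9. The log2 difference in Carm1-/- was -0.31 (SE 0.47, limma, adjusted p = 0.821), and without replicate 2 of that label it was 0.28 (adjusted p = 0.848), within a range of adjusted p from 0.568 to 0.997 over the alternatives. In GENCODE M21 a predicted gene, Gm49361, shares 56.53% of the 50-base windows of the main Lats2 transcript, and how reads were divided between them is not given in the sources used here. Lats1 (chromosome 10, 7681214 to 7716460, plus strand) was near the filter, at 0.7, 0.31 and 1.14 FPKM in WT, 0.73, 1.49 and 0.46 FPKM in H3R17H and 0.55, 1.37 and 0.15 FPKM in Carm1-/-. Its groups overlapped, and adjusted p was 0.903 and 0.967 (limma) against WT.

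Mob1a, the adaptor that MST phosphorylates to switch on LATS (chromosome 6, 83326016 to 83343776, plus strand), was higher in mean value in both edited groups. It stood at 6.17, 5.73 and 5.6 FPKM in WT, at 9.34, 6.08 and 6.72 FPKM in H3R17H and at 9.21, 8.86 and 5.68 FPKM in Carm1-/-. In each edited group 1 library lay within the WT range and the other 2 lay above it. The log2 differences were 0.28 (SE 0.3, limma, adjusted p = 0.703) and 0.36 (SE 0.3, adjusted p = 0.654). None of its 50-base windows was shared with another annotated gene, its paralogue Mob1b included.

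Among the inhibitors that feed into LATS, Nf2 showed no separation between groups. Nf2 (chromosome 11, 4765845 to 4849536, minus strand) encodes merlin, which recruits LATS to the membrane. It stood at 9.89, 6.99 and 4.86 FPKM in WT, at 8.34, 4.68 and 6.57 FPKM in H3R17H and at 6.88, 9.87 and 7.63 FPKM in Carm1-/-. The WT libraries alone spanned nearly the whole range of the 9, and the log2 differences from WT were -0.11 (95% interval -0.86 to 0.63) and 0.18 (-0.56 to 0.92), with limma adjusted p of 0.906 and 0.864.

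Amot, the angiomotin that couples cell contacts and polarity to LATS in the blastocyst, lies on the X chromosome (145446425 to 145505181, minus strand). It stood at 2.41, 3.81 and 4.2 FPKM in WT, at 1.06, 1.38 and 2.7 FPKM in H3R17H and at 4.93, 2.43 and 3.17 FPKM in Carm1-/-. The H3R17H libraries were low, with replicate 3 inside the WT range, and the Carm1-/- libraries spread around WT. The difference from WT in H3R17H was -0.74 (-1.56 to 0.07, limma, adjusted p = 0.388), the lowest adjusted p of any member in that comparison. Between the edited groups it was 0.74 (-0.07 to 1.56, adjusted p = 0.66). With a term for Y-linked transcripts the H3R17H difference was -0.7 (SE 0.47, limma, adjusted p = 0.778). Y-linked transcripts were present in all WT libraries, in H3R17H replicate 1, the lowest in Amot, and in Carm1-/- replicate 1, the highest. They summed to 0.01 FPKM or less in replicates 2 and 3 of both edited groups. Label and Y-linked transcripts can therefore not be fully told apart. The summed trophectoderm markers were also lowest in H3R17H replicates 1 and 2, at 1627 and 1654 FPKM, and highest in Carm1-/- replicate 1, at 8823 FPKM. The part of sex or of these markers in the Amot values was not tested.

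Amotl1, a related angiomotin (chromosome 9, 14541966 to 14645056, minus strand), was close to 0 in all WT libraries and above 1 FPKM in some edited ones. It stood at 0.27, 0 and 0.18 FPKM in WT, at 0.23, 3.18 and 0.3 FPKM in H3R17H and at 2.18, 1.93 and 0.4 FPKM in Carm1-/-. Only 3 of the 9 libraries exceeded 1 FPKM, 1 in H3R17H and 2 in Carm1-/-, and Amotl1 passed the filter through these. A higher value in the edited groups was therefore favoured by the filter, and its differences are given as a description: the log2 difference from WT was 1.04 (95% interval -0.08 to 2.17) in Carm1-/- and 0.72 (-0.4 to 1.85) in H3R17H. The second value rests on replicate 2 labelled H3R17H, without which it was 0.15.

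Ajuba, the LIM protein that binds and restrains LATS (chromosome 14, 54567472 to 54577558, minus strand), was lower than WT in every edited library. It stood at 4.89, 4.63 and 4.18 FPKM in WT, at 1.75, 4.15 and 2.64 FPKM in H3R17H and at 3.87, 0.25 and 2.32 FPKM in Carm1-/-. Neither edited group overlapped WT, while the edited groups overlapped each other, and H3R17H replicate 2 was almost level with the lowest WT library. The difference was -0.58 (-1.65 to 0.49, limma, adjusted p = 0.606) in H3R17H and -1.03 (-2.1 to 0.04, adjusted p = 0.445) in Carm1-/-. Carm1-/- replicate 2 set much of the second value, which was -0.47 (adjusted p = 0.763) without it and -1.45 (adjusted p = 0.102) without replicate 1, the range over the alternatives being 0.102 to 0.978. Lats2 and Ajuba were both at their lowest in Carm1-/- replicate 2, the library with the highest summed oocyte markers. That sum was mostly Zp3, at 19.98 FPKM, with Gdf9 at 0.03 FPKM, and the part of those markers was not tested.

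Over the 10 genes, no member passed in any of the 3 comparisons. In limma over 11850 genes with Benjamini-Hochberg adjustment and a threshold of 0.05, 0 of 10 members were called against a background of 0% of all genes, higher or lower, in each comparison. At an unadjusted p under 0.05 there were also 0 of 10 in each, while 6.41% of all genes were higher and 7.75% lower in H3R17H vs WT, 5.25% and 6.19% in Carm1-/- vs WT, and 4.09% and 4.12% in Carm1-/- vs H3R17H. In H3R17H 6 of 10 members were lower in value than WT and in Carm1-/- 7 of 10, beside 52.3% and 53.7% of all genes. The median log2 difference of the members was -0.12 in H3R17H and -0.04 in Carm1-/-, and that of all tested genes -0.03 and -0.04. Over the 17 settings that tested all 10, the number of lower members ran from 4 to 6 in H3R17H and from 4 to 7 in Carm1-/-. Between the edited groups 4 members were lower in value in Carm1-/-, beside 51% of all genes, and 6 higher, with a median of 0.05. The 2 comparisons with WT share their WT libraries, so their values are not independent.

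**Figure D2:**
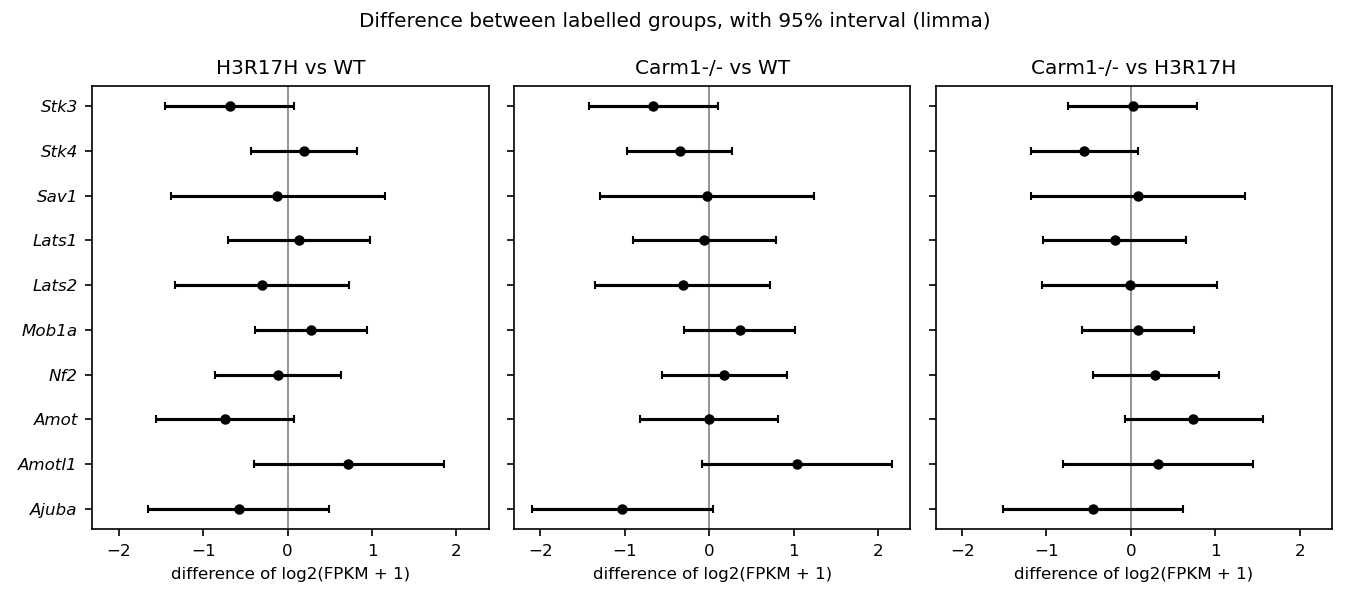
Difference of log2(FPKM + 1) between labelled groups (x axis) for each gene (y axis), with the 95% interval from limma. Every interval includes 0, and among those that reach least past it are Ajuba in Carm1-/- vs WT (-2.1 to 0.04) and Amot and Stk3 in H3R17H vs WT (up to 0.07 and 0.08).

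Groups that did not overlap were found for 4 of 10 members in H3R17H vs WT: Stk4 higher, and Stk3, Lats2 and Ajuba lower. Over all genes 13.3% were higher and 15.6% lower in this way. In Carm1-/- vs WT 3 members, Stk3, Stk4 and Ajuba, stood lower without overlap, as did 9.71% of all genes. The share of all genes below WT in both edited groups, as Stk3 and Ajuba were, was not counted. The 1 member higher without overlap was Amotl1, beside 6.91% of all genes, and nothing is read from it since it passed the filter through the edited libraries. In Carm1-/- vs H3R17H there was 1, Stk4, lower, beside 6.07% of all genes lower and 5.13% higher. With only 10 genes, 1 member more or less moves such a share by 10 percentage points. Two-sided exact permutation of 3 against 3 libraries cannot give a p below 0.1, so non-overlap alone does not reach the threshold.

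Paralogues were set beside each other on the per-length scale to show the balance within each family. These sums and shares are a description. None was tested, and how often sums or shares of other genes separate the groups was not counted. The share of Stk3 in the sum of Stk3 and Stk4 was 36%, 46.9% and 39.1% in WT, 33.4%, 16.3% and 25.7% in H3R17H and 31.5%, 31.6% and 38.1% in Carm1-/-. All H3R17H libraries lay below WT in this share, and the Carm1-/- libraries overlapped WT. The summed MST level was 13.7 ± 1.64 FPKM in WT, 12.7 ± 0.96 FPKM in H3R17H and 9.43 ± 2.38 FPKM in Carm1-/- (SD, n = 3), and every Carm1-/- library, at 6.74 to 11.26 FPKM, lay below the lowest of the other 6, at 11.59 FPKM. Lats2 made up 85.7 ± 7.65% of the LATS level in WT and 37.5% in Carm1-/- replicate 2, the library where Lats1 exceeded it. Mob1a made up 73.8% to 91.5% of the MOB1 level in the 9 libraries. Amotl2, a target and inhibitor of Yap, was the main angiomotin in 7 of 9 libraries, with shares of 61.6% to 85.2%, and Amot exceeded it in H3R17H replicate 3 and Carm1-/- replicate 3, where Amot made up 60.9% and 57.7%. In these 2 libraries Amotl2 stood at 1.43 and 1.93 FPKM, against 7.44 to 19.55 FPKM in the others. Amotl2 did not pass, with log2 differences from WT of -0.88 and -0.77 (SE 0.71, limma, adjusted p = 0.594 and 0.691).

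Ajuba shares its role with the LIM proteins Limd1 and Wtip. Its share of their summed level was 53.1%, 52.4% and 38.7% in WT, 26.7%, 54.9% and 40.2% in H3R17H and 32%, 5.42% and 23.5% in Carm1-/-. The Carm1-/- libraries all lay below WT in this share and the H3R17H libraries overlapped it, which was not tested. Limd1 itself ranged from 1.62 to 6.96 FPKM and Wtip from 0.48 to 3.19 FPKM over the 9 libraries, with groups that overlapped. The KIBRA genes Wwc1 and Wwc2, scaffolds that work with NF2, differed from WT by -0.68 and -0.16 in H3R17H and by -0.8 and -0.22 in Carm1-/- (log2), and neither passed (limma).

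**Figure D3:**
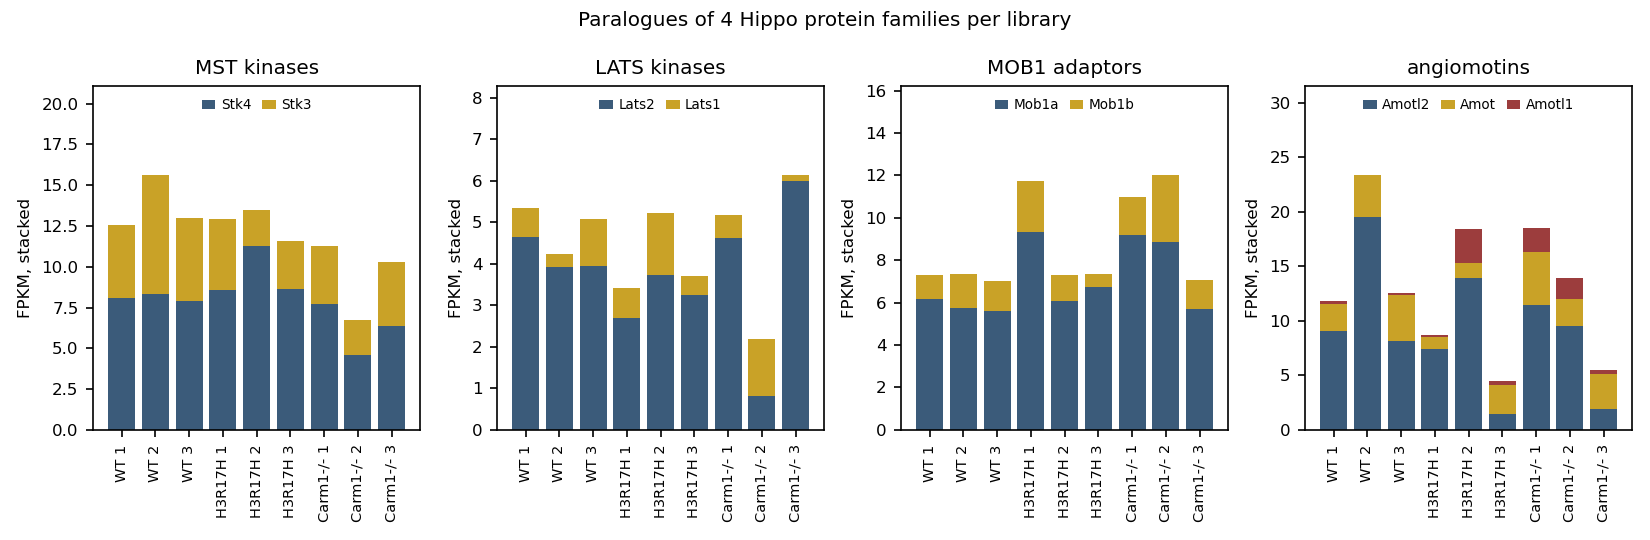
Stacked FPKM (y axis) of the paralogues of 4 Hippo protein families in each library (x axis, label and replicate). Summed MST kinases are lowest in the Carm1-/- libraries (6.74 to 11.26 FPKM), and Amotl2 is small in H3R17H replicate 3 and Carm1-/- replicate 3. Sums were not tested.

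The other genes of the pathway were read from lists of 61 symbols arranged by role, of which 55 were tested. None passed in any comparison (limma), and 7, 8 and 5 had an unadjusted p under 0.05 in H3R17H vs WT, Carm1-/- vs WT and Carm1-/- vs H3R17H, shares near those of all genes given above for both directions together. In H3R17H 38 of 55 were lower in value than WT and in Carm1-/- 37, with medians of -0.19 and -0.3, beside 52.3% and 53.7% of all genes lower and medians of -0.03 and -0.04. The counts by role below are to be read beside these shares, and nothing particular to a role was tested. The list headed turnover joins genes such as ubiquitin ligases with those of 14-3-3 proteins, which bind Yap rather than degrade it. Its genes were lower in value for 9 of 10 in both edited groups, with medians of -0.42 and -0.35. Nedd4, a ubiquitin ligase, measured 25.78, 16.96 and 20.78 FPKM in WT, against 6.22, 1.22 and 7.19 FPKM in H3R17H (log2 difference -2.11, limma, adjusted p = 0.226). In Carm1-/- it was also below WT, at 16.51, 3.07 and 8.76 FPKM (-1.3, adjusted p = 0.437). Components of the STRIPAK phosphatase complex, which opposes the MST kinases, were lower in value for 9 of 10 in Carm1-/-, by a median of -0.45, and for 5 of 10 in H3R17H. Polarity, adhesion and actin genes, which place angiomotin in the cell, were lower in value for 10 of 13 in H3R17H and 11 of 13 in Carm1-/-. Of 4 lineage genes, Cdx2, Gata3, Sox2 and Nanog, 3 were lower in value in H3R17H and 4 in Carm1-/-, and none passed.

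Of the 16 tested upstream kinases and adaptors, 9 were lower in value than WT in H3R17H, with a median of -0.03. In Carm1-/- 4 were lower and 12 higher than WT, with a median of 0.13. Against H3R17H, 13 were higher in Carm1-/-, with a median of 0.22. Taok1, a kinase that activates MST, stood at 3.05, 1.4 and 4.85 FPKM in WT, at 7.79, 8.71 and 7.36 FPKM in H3R17H and at 3.35, 2.44 and 3.26 FPKM in Carm1-/-. It was higher in every H3R17H library than in the other 6, and did not pass (log2 difference from WT 1.22, limma, adjusted p = 0.237). Map4k1, of a kinase family that acts on LATS in parallel to MST, stood at 9.54, 7.62 and 10.84 FPKM in WT and was higher in all 6 edited libraries, at 11.93 to 28.68 FPKM (log2 difference 0.83 and 1.22, adjusted p = 0.34 and 0.272). Nedd4, Taok1 and Map4k1, and the effectors Yap1 and Tead4, were picked from the lists after their values were seen. Among the effectors, Yap1 stood at 8.73 to 9.8 FPKM in WT, 3.1 to 8.24 FPKM in H3R17H and 1.42 to 3.45 FPKM in Carm1-/-, and Tead4 at 20.02 to 34.18, 24.1 to 35.04 and 7.48 to 38.41 FPKM.

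**Figure D4:**
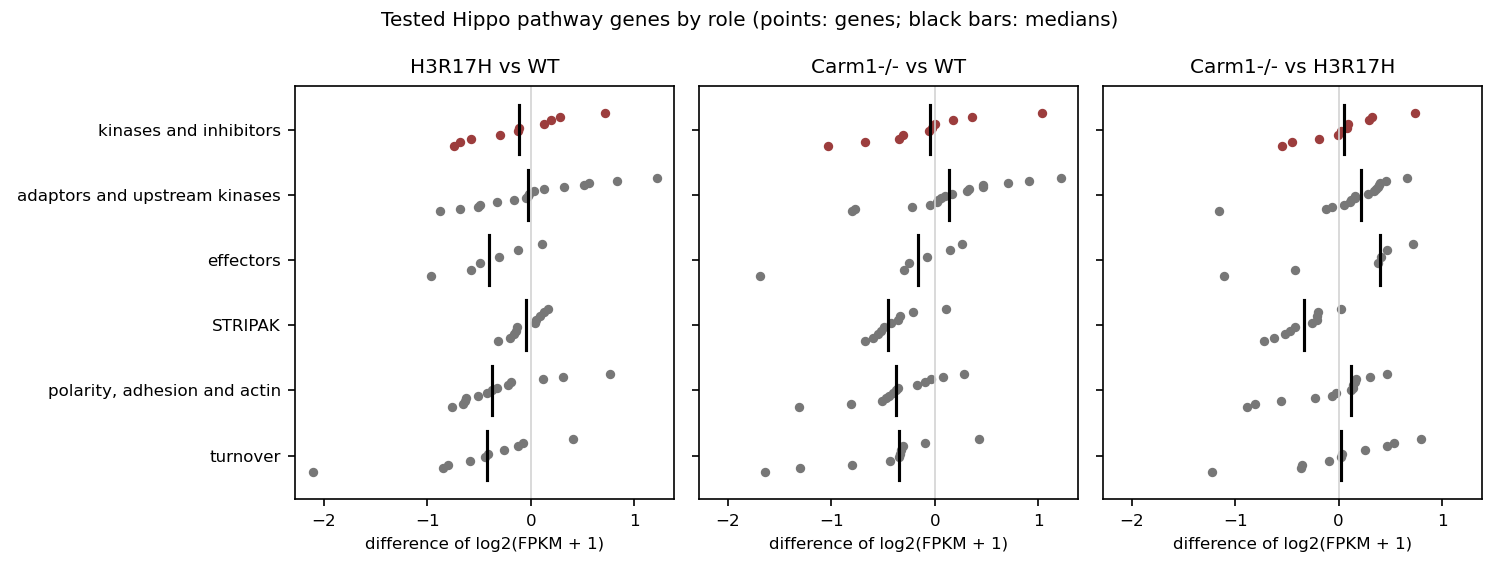
Difference of log2(FPKM + 1) (x axis) of each tested Hippo pathway gene (points) by role (y axis), with the median of each role as a black bar, in the 3 comparisons. The 10 kinases and inhibitors (red) scatter on both sides of 0. Against WT the 55 other tested genes lie mostly below 0 (38 lower in H3R17H, 37 in Carm1-/-). Medians are -0.42 and -0.35 for turnover genes and -0.38 and -0.37 for polarity, adhesion and actin genes. In Carm1-/- the median is -0.45 for STRIPAK genes and 0.13 for adaptors and upstream kinases.

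Over the 9 libraries pairs of members correlated in both directions. Among their 45 pairs Pearson's r of log2(FPKM + 1), given as a description over libraries that share groups, had a median of -0.15 and ran from -0.79, for Stk3 with Amotl1, to 0.82, for Lats2 with Ajuba. There were 7 pairs above 0.5 and 7 below -0.5, and how many pairs of other genes reach such values was not counted. Lats2 and Ajuba are 1 of the pairs above 0.5, and their shared low value in Carm1-/- replicate 2 enters this r. Nothing is read from the pairs with Amotl1, the lowest r included, since Amotl1 passed the filter through the edited libraries. Among all tested genes other than predicted models, the pattern of Lats2 was closest to Lars (r = 0.965), Arhgap9 (0.953) and Sepsecs (0.942), which also stood at their lowest in Carm1-/- replicate 2, at 6.18, 0.86 and 0.02 FPKM. Nf2 was closest to Lancl1 (0.899), Mast2 (0.874) and Orc1 (0.874). Amot was closest to Ccdc28b (0.98), Ptgr1 (0.978) and Sparc (0.964), all lowest in H3R17H replicate 1 and highest in Carm1-/- replicate 1, as Amot was. Each is among the 3 highest values of r over all genes compared, from only 9 libraries.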

How the data were processed

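The deposited table gives FPKM for 9 libraries, a unit the authors give per the labels, and 0 further columns held sample values. Bowtie 0.12.2 appears in the submitters' processing notes, as do mm10 and GRCm38, with no role stated. Which quantifier, annotation and filters were used is not given in the sources used here. Libraries were grouped by title and matched to columns by description. The test covered the 11850 genes reaching 1 FPKM or more in 3 or more libraries, on the log2(FPKM + 1) scale, which understates fold changes of low genes. All 9 libraries entered 1 limma fit with an intensity trend, checked on simulated data, and p-values were adjusted over all tested genes by Benjamini-Hochberg (threshold 0.05). Alternatives changed the pseudocount, filter, scaling, libraries in the fit, weights and replicate block, left out each library in turn, or added a term for Y-linked transcripts. The members, lists and tests were chosen with earlier results of these data known. All members are named, and other pathway genes where they complete a paralogue family or, for Wwc1 and Wwc2, are listed with those, apart from 5 picked by value. Gene positions count from 1 and come from the GENCODE M21 annotation of GRCm38. FPKM carry no depth, so counting error could not be estimated. Tools were R 4.3.3, limma 3.58.1, Python 3.11.15, pandas 2.3.3, numpy 2.4.6 and matplotlib 3.10.9.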

Additional observations from a re-analysis of the deposited data

Results flagged for a closer look

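Of the 10 genes, only Stk4 stood above the WT mean in every library labelled H3R17H and below it in every library labelled Carm1-/-. How many of all tested genes do so was not counted. The nearest libraries, at 8.59 and 7.72 FPKM, lay close to the WT range of 7.93 to 8.3 FPKM. The log2 difference of Stk4 between the edited groups, Carm1-/- minus H3R17H, was -0.55 (limma, adjusted p = 0.67), which did not pass. Over the alternatives it ran from -0.7 to -0.37 with adjusted p from 0.39 to 0.955.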

How the results depend on the processing

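No member passed in any of the 18 alternatives; of 519 member values 473 kept their direction and 46 changed sign, all without passing. The filter of a mean of at least 5 FPKM left only Stk4, Nf2 and Mob1a to test. The lowest adjusted p of a member was 0.102 (limma), for Ajuba in Carm1-/- vs WT without Carm1-/- replicate 1. Counts of all genes called, 0 in each comparison, depended on settings. In H3R17H vs WT they were 1 with a pseudocount of 5, 240 with only the groups compared and 192 with array quality weights. In Carm1-/- vs WT they were 1 with a pseudocount of 0.1 and 1 with array quality weights. In Carm1-/- vs H3R17H they were 1 with a pseudocount of 0.1, 1 with 5 and 2 with median-of-ratios scaling. Leaving out 1 library gave 0 to 125 genes in H3R17H vs WT, where leaving out WT replicate 1 gave 2 and Carm1-/- replicate 2 gave 4. It gave 0 to 549 in Carm1-/- vs WT and 0 to 10 in Carm1-/- vs H3R17H, where leaving out WT replicate 1 gave 1. All 3 upper ends came without Carm1-/- replicate 1. The cause was not tested.

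Log2 differences of these members changed sign. For Sav1, the term for Y-linked transcripts, chosen after seeing the data, gave 0.46 in H3R17H vs WT and 0.54 in Carm1-/- vs WT, where a pseudocount of 0.1 gave 0.05 and median-of-ratios scaling 0.01. For Amot in Carm1-/- vs WT, a pseudocount of 5 gave 0, median-of-ratios scaling 0.04 and the Y-linked term 0.04. In Carm1-/- vs H3R17H, Lats2 was 0.05 with a pseudocount of 5, and array quality weights gave 0.3 for Lats2, -0.3 for Sav1 and -0.09 for Mob1a. Leaving out 1 library, H3R17H vs WT ran from -0.59 to 0.2 for Sav1, -0.34 to 0.11 for Nf2 and -0.08 to 0.31 for Lats1. Carm1-/- vs WT ran from -0.51 to 0.39 for Sav1, -0.22 to 0.18 for Amot, -0.33 to 0.19 for Lats1, -0.04 to 0.4 for Nf2 and -0.69 to 0.28 for Lats2. Carm1-/- vs H3R17H ran from -0.47 to 0.05 for Lats1, -0.39 to 0.58 for Lats2, -0.16 to 0.21 for Stk3, -0.24 to 0.56 for Sav1, -0.03 to 0.28 for Mob1a and -0.87 to 0.11 for Ajuba.

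Same-numbered libraries had correlated deviations of -0.05 to 0.183, with 1 of 9 pairs over 0.1, and correlated best with their own number in 4 of 18 cases, so the numbers were not taken to pair libraries. With the replicate number as a block, 0 genes were called in each comparison.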
